A study of Mus musculus with 15 samples.

Results

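Mice that carry a dominant negative form of thyroid hormone receptor alpha in their parvalbumin neurons were compared with littermates that have the normal receptor. Of the 15 libraries of the series, 8 enter this comparison, 4 named Mut and 4 named Ctrl, chosen by their titles, and each library is 1 mouse. Every gene row of their tables was considered, 48321 in all, and 16949 passed a filter on low counts and were tested. RNA came from fluorescent nuclei sorted out of the frozen cerebral cortex of individual adult mice.

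All 15 mice carried PvCre, which drives Cre recombinase in parvalbumin neurons, and ROSA-tomato-lox, a reporter that Cre switches on and that labels the nuclei. Ctrl mice (n = 4) were untreated and Thra+/+. Mut mice (n = 4) were untreated littermates of genotype ThraAMI/+. Their floxed allele encodes TRalpha1 with the L400R change, and they keep 1 normal copy of Thra. The remaining 7 mice were Thra+/+. PTU mice (n = 3) were fed propylthiouracil for 2 weeks, and PTU_TH mice (n = 4) had the same food plus thyroid hormone given intraperitoneally 24 h before dissection. Cre acts in every cell that uses the parvalbumin gene, so the altered receptor was not limited to the cortex by this design. The labels give neither ages in numbers nor sexes.

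Thyroid hormone acts through nuclear receptors that stay on DNA with or without the hormone. Without hormone the receptor holds corepressors and keeps its target genes low, and with hormone it exchanges them for coactivators. A receptor that cannot make this exchange stays a repressor and competes with the normal protein, which is what dominant negative means here. Parvalbumin neurons are the fast-spiking inhibitory interneurons of the cortex, known for narrow action potentials, strong calcium buffering and a coat of extracellular matrix called the perineuronal net.

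The altered residue lies at the C-terminal end of the receptor, in the helix that coactivators bind. In the GENCODE M21 annotation of GRCm38, transcript Thra-202 encodes 410 codons, and codon 400 is CTC, at chr11:98764493-98764495 in exon 9 on the plus strand. The reference codons 390 to 410 are shown because this stretch holds the residue by which the groups differ, and the capitals mark codon 400.
Thra codons 390 to 410: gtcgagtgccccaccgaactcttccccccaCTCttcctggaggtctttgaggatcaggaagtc

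The 8 libraries held 22333742 to 32571175 counts over 21337 to 22577 genes. Within the groups, Spearman correlations between libraries were 0.961 to 0.990. Mut replicate 2 stood apart. Its mean correlation with the other Mut libraries was 0.964, against 0.975 to 0.978 for each of those, and on the first principal component of the within-group differences, which held 39.2% of that variance, it lay at 64.4 against -26.1 to -17.3. Genes longer than 100 kb took 27.4% of its counts, 34.6% to 36.7% of those of the other Mut libraries and 29.5% to 39.7% of those of the Ctrl libraries. Summed over 8 markers of endothelium and mural cells it had 43.7 CPM (counts per gene after scaling for library size), against 3.01 to 6.05 CPM in the other Mut and 3.98 to 17.4 CPM in the Ctrl libraries. Counts of Y-linked genes were present in Ctrl replicate 2 and in Mut replicates 1, 2 and 3, at 403 to 476 CPM summed over 4 genes, and were 2.44 to 3.19 CPM in the others, so sex was unequal between the groups. Calls are therefore given with and without Mut replicate 2, and sizes also within the libraries with and without Y-linked counts.

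The labelled cell type was checked against 12 markers of parvalbumin neurons, whose summed level was 7478 to 10017 CPM in Ctrl and 8167 to 10206 CPM in Mut. Such a sum is set mostly by genes with high levels. Of the 11 tested, 5 had a higher and 6 a lower level in Mut, with log2 differences of -0.63 for Pvalb and 1.17 for Tac1. Summed over 12 markers of excitatory neurons the levels were 364 to 425 CPM and 365 to 439 CPM. Markers of somatostatin, Vip and other interneurons, 11 genes, summed to 100.2 to 132 CPM in Ctrl and to 135 to 252 CPM in Mut, with no overlap. How often such sums do not overlap was not computed. Cck alone had means of 30.1 and 54.0 CPM. None of the 7 tested members was called, and 6 had a higher level in Mut, with a median log2 difference of 0.46. Without Mut replicate 2, 5 were higher, the median was 0.15, and Sst and Vip were at 0.20 and -0.24. The sum does not show a rise across these markers. Cox6a2, Gfap and P2ry12 are listed at 0 in all 8 libraries. So are Cox4i1, which every cell uses, and Nefl, a neurofilament gene of most neurons, so a 0 in these tables does not show that a gene is silent. In bulk nuclei, fewer cells of a type and less RNA per cell cannot be told apart.

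Thra itself was measured first. Its level was 60.7, 56.7, 48.3 and 62.2 CPM in Ctrl replicates 1 to 4 and 29.6, 27.8, 37.9 and 32.1 CPM in Mut replicates 1 to 4. All 4 Mut libraries lay below all 4 Ctrl libraries. The log2 difference was -0.84 ± 0.14 (SE), a 1.79-fold lower level (adjusted p = 0.0280, edgeR quasi-likelihood test), and -0.78 ± 0.14 without Mut replicate 2 (adjusted p = 0.0333). The call of Thra was held in 2 of the 8 fits that leave out 1 library, with an adjusted p of up to 0.137 without Ctrl replicate 4, and was lost with sex as a term (adjusted p = 0.120). These counts cover the whole gene and do not separate the transcripts of its alleles, and 5.70% of its exon bases overlap Nr1d1 on the opposite strand. Nr1d1, a clock repressor, had 24.3 ± 6.21 CPM in Ctrl and 30.5 ± 1.65 CPM in Mut (SD, n = 4 each; adjusted p = 0.721). Thrb, which encodes receptor beta, had 445 ± 159 CPM and 470 ± 119 CPM (adjusted p = 0.981).

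Across the genome, 59 genes changed, 38 lower and 21 higher in Mut. That is 0.348% of the tested genes, 0.224% lower and 0.124% higher (edgeR, Benjamini-Hochberg adjusted p under 0.05). The 38 lower genes had log2 differences of -3.49 to -0.70 with a median of -1.19, and 24 of them were at least 2-fold lower. The 21 higher genes had differences of 0.72 to 2.26 with a median of 1.17, and 15 were at least 2-fold higher. Mut and Ctrl libraries did not overlap in any of the 59, against 6.12% of all tested genes without overlap. The 59 were called from these same values, so their separation follows largely from the selection. Without Mut replicate 2, 103 genes were called (0.595% of 17306 tested), 64 lower (0.370%) and 39 higher (0.225%), and 58 of the 59 were among them. The exception was Ppfibp1, at an adjusted p of 0.0505. The number of calls depended on the libraries. It was 43, 19, 11 and 13 when Ctrl replicates 1, 2, 3 and 4 were left out in turn, and 11, 36 and 16 without Mut replicates 1, 3 and 4. Acan, Arhgap22, Col16a1, Col24a1, Fam150b, Itga7, Ryr1, Scn4b and C030037D09Rik were called in all 8 of these fits, and 34 of the 59 in at most 2. Of other genes described here, Cacnb3 and Rbp4 were called in 7, Npnt and Zcchc12 in 6, Suv420h2, Slc7a3, Nupr1 and Ror1 in 4, Kcng4, Tesc and Gpr83 in 3, Hmcn2, Adamtsl5, Fzd6, Lgi3, Gpcpd1, Treh and Aplp1 in 2, and Tac1, Nfatc2, Dot1l, Ppfibp1, Grhl3 and Chl1 in 1.

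**Figure D1:**
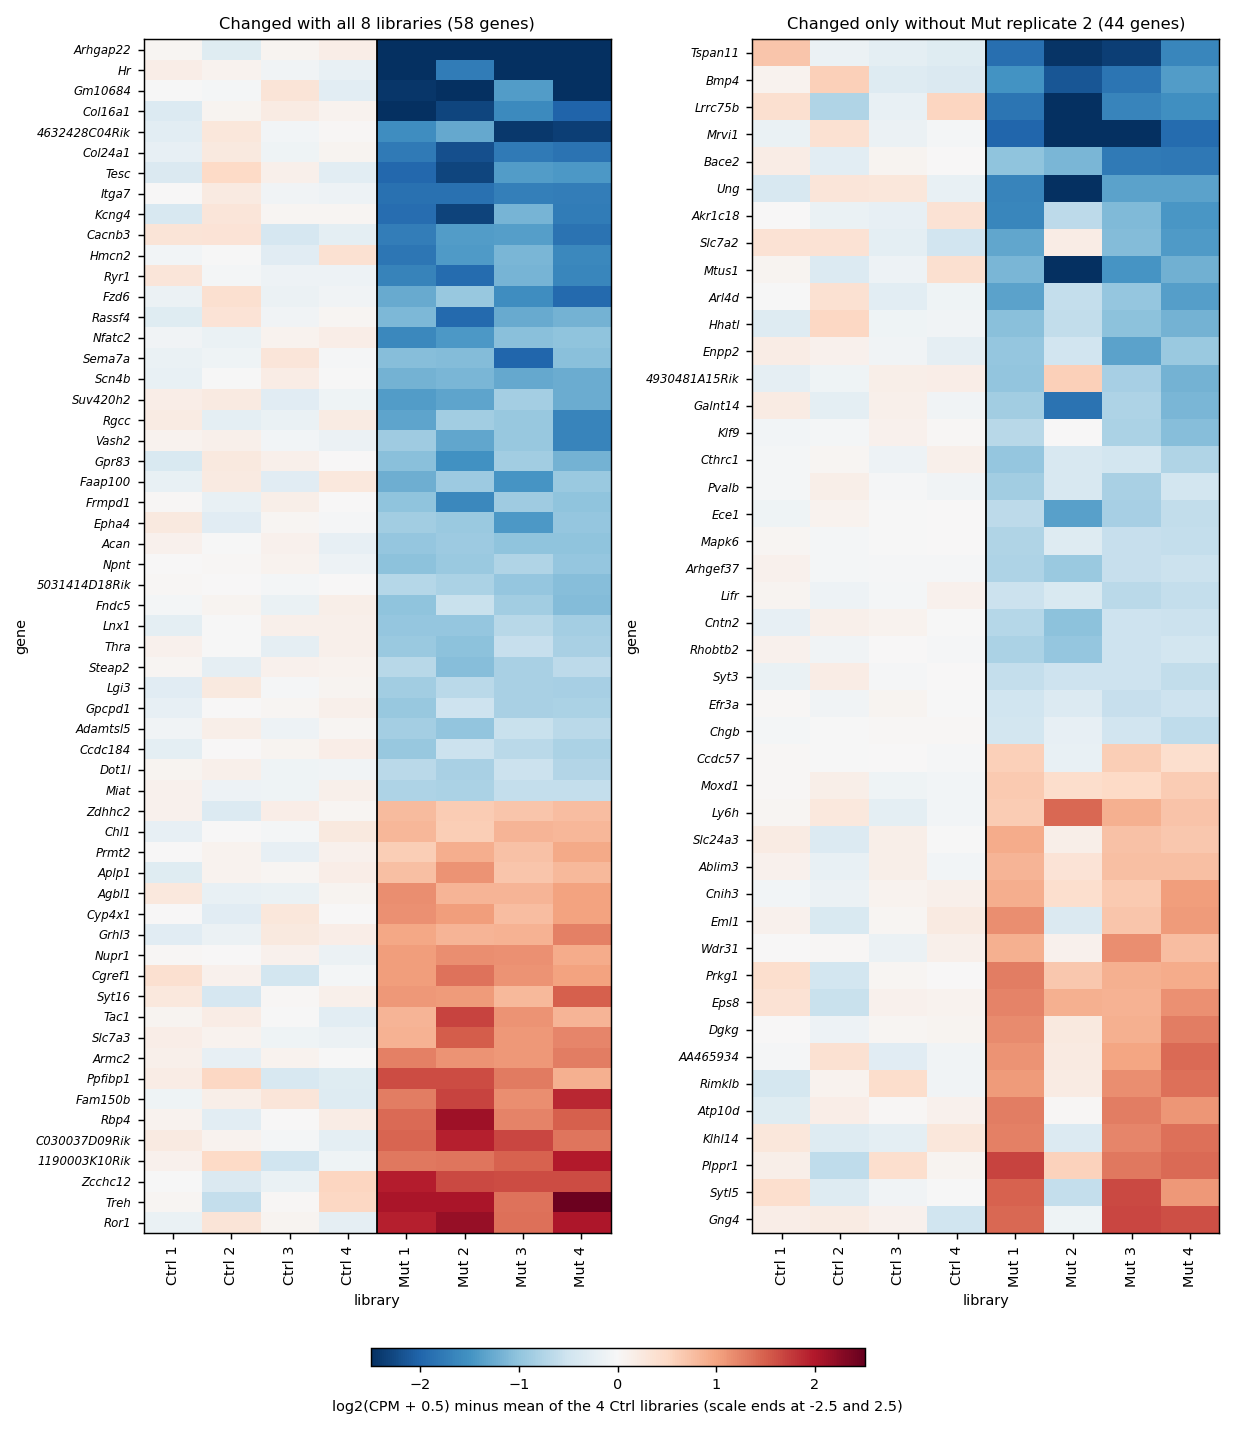
Level of each changed gene in each of the 8 libraries (columns), as log2(CPM + 0.5) minus the mean of the 4 Ctrl libraries, blue for lower and red for higher. The left panel has 58 of the 59 genes called with all libraries, where the 4 Mut columns share a colour in every row, and the right panel those called only without Mut replicate 2, where that column is paler or of the other colour in several rows.

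Hr and Klf9, transcriptional regulators that are textbook targets of thyroid hormone in brain, were lower in most Mut libraries. Hr, which encodes the corepressor hairless, was at 16, 15.1, 13.3 and 12.4 CPM in the Ctrl libraries and at 1.67, 3.83, 0.467 and 0.901 CPM in Mut replicates 1 to 4. Mut replicate 2 had the highest of the Mut values, still far below the lowest Ctrl value. The log2 difference of Hr was -3.06 ± 0.50 (adjusted p = 0.0259, edgeR) and -3.83 ± 0.37 without that library (adjusted p = 0.00206). Hr was called in 2 of the 8 fits that leave out 1 library (adjusted p of up to 0.111, without Mut replicate 1). Klf9, a Krüppel-like factor, had 35.9, 36.2, 40.3 and 38.2 CPM in Ctrl and 23.0, 37.9, 21.5 and 17.8 CPM in Mut. For Klf9 the Mut replicate 2 value lay within the Ctrl range, and the other Mut values lay below it. With all 8 libraries Klf9 was not called (-0.59 ± 0.21, adjusted p = 0.395), and without Mut replicate 2 it was (-0.86 ± 0.14, adjusted p = 0.0237).

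Of 20 tested genes on a list of known hormone-induced genes, 3 fell (Hr, Sema7a and Itga7), none rose and 15 had a lower level in Mut. Those 15 are 75% of the list, beside 47.7% of all tested genes. The list's median log2 difference was -0.39 beside 0.01 for all tested genes, and -0.55 beside -0.004 without Mut replicate 2, when Klf9 was called as well. Its summed level was 960 to 1130 CPM in Ctrl and 692 to 761 CPM in Mut. That sum is set mostly by genes with high levels, here also the uncalled Nefh, and does not by itself show a fall across the list. Among 13 receptors and partner proteins, Thra and Hr fell and the remaining 11 were not called. Of those, Rxrg, a retinoid X receptor that pairs with thyroid hormone receptors, was at 0.659 to 2.75 CPM in Ctrl and 1.64 to 6.41 CPM in Mut (adjusted p = 0.420). Hormone transporters and deiodinases gave no call among 6 tested genes with all libraries, and their median was 0.001.

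Itga7, Col24a1 and Col16a1, of the extracellular matrix and its receptors, were among the strongest falls. Itga7, the integrin alpha 7 subunit that binds laminin, had 77.1, 89.2, 72.0 and 69.8 CPM in Ctrl and 20.6, 20.6, 23.0 and 22.7 CPM in Mut. The 4 Mut values lay close together and far below the Ctrl values. The log2 difference was -1.82 ± 0.13 (adjusted p = 0.000162, edgeR), and -1.80 ± 0.13 without Mut replicate 2. Col24a1, a fibrillar collagen, was at 65.3, 89.1, 69.2 and 78.0 CPM in Ctrl and at 21.7, 15.8, 21.5 and 20.5 CPM in Mut, a log2 difference of -1.92 ± 0.15 (adjusted p = 0.000359). Col16a1, a collagen associated with fibrils, was at 82.6, 111, 122 and 112 CPM against 18.3, 21.2, 34.8 and 25.9 CPM, a difference of -2.09 ± 0.20 (adjusted p = 0.00124).

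Aggrecan, encoded by Acan, is the main chondroitin sulfate proteoglycan of the perineuronal net. Its level was 68.3, 62.2, 67.6 and 54.8 CPM in Ctrl and 31.9, 33.4, 31.0 and 31.2 CPM in Mut. The groups were far apart relative to their spread, with a 1.98-fold lower mean and a log2 difference of -0.99 ± 0.12 (adjusted p = 0.00708, edgeR). Npnt, the integrin ligand nephronectin, fell 1.89-fold, from 66.9 ± 3.94 to 35.3 ± 3.03 CPM (SD, n = 4 each; adjusted p = 0.00761). Hmcn2, a hemicentin, fell 3.06-fold, from 11.5 ± 2.42 to 3.75 ± 0.847 CPM (adjusted p = 0.0227). Adamtsl5, an ADAMTS-like matrix protein, fell 1.69-fold, from 160 ± 13.5 to 94.4 ± 12.6 CPM (adjusted p = 0.0243).

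Of 21 tested perineuronal net genes 1 was called, Acan, and the median log2 difference was -0.02. The summed level of this list was 2135 to 2263 CPM in Ctrl and 1737 to 2116 CPM in Mut, with no overlap. Such a sum is set mostly by genes with high levels, here also the uncalled Bcan, and does not show a fall across the list. The differences of the other 20 genes, none of them called, ran from -1.47 for Adamts5, a protease that cuts aggrecan (adjusted p = 0.412), to 1.03 for Nptx2, a neuronal pentraxin (adjusted p = 0.433). Hapln1, a link protein, was at 53.2 ± 4.28 CPM in Ctrl and 35.8 ± 3.48 CPM in Mut (SD, n = 4 each; log2 difference -0.57 ± 0.12, adjusted p = 0.0876, edgeR). Bcan, brevican, was at 652 to 777 CPM in Ctrl and 558 to 602 CPM in Mut (adjusted p = 0.557), and Hapln4, another link protein, at 224 to 343 CPM and 171 to 247 CPM (adjusted p = 0.271). Of 36 collagen, laminin and basement membrane genes 2 were called, both lower, with a median of 0.11. Of 19 integrins only Itga7 was called, with a median of -0.01 and summed levels of 355 to 395 CPM in Ctrl and 282 to 344 CPM in Mut. The mean integrin sum was 371 CPM in Ctrl and 320 CPM in Mut, while Itga7 alone had means of 77.0 and 21.7 CPM. The lower sum is therefore no fall across the integrins. The counts of calls in these 3 lists did not change without Mut replicate 2.

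Promoter bases of the collagen genes Col24a1 and Col16a1 are shown because these 2 collagen genes fell and their promoters are in the RefSeq table (GRCm38.p6), 1 with and 1 without the letters searched. Each is the 250 bases before the RefSeq start, on the plus strand, at chr3:145292222-145292471 for Col24a1 and chr4:130047590-130047839 for Col16a1. Capitals mark AGGTCA, the hexamer that thyroid hormone receptors and several related receptors prefer, which was searched on both strands, as TGACCT on the other.
Col24a1 promoter: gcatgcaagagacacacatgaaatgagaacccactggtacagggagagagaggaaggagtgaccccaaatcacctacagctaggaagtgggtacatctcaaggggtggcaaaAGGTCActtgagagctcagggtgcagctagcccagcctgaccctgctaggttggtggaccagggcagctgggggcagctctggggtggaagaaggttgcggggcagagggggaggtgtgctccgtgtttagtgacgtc
Col16a1 promoter: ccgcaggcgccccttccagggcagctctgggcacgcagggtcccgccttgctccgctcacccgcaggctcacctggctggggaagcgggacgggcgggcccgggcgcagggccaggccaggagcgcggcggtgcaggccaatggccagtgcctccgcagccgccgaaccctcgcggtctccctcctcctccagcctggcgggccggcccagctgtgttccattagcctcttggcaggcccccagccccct

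In Col24a1 the hexamer begins 138 bases before the start, and in Col16a1 these letters are not in the window. Over all genes that fell, 5 of 31 with a promoter in the table held it (16.1%: Gm10684, Col24a1, Npnt, Steap2 and Adamtsl5), and over those that rose, 2 of 16 (12.5%: Agbl1 and Treh). Among all 27025 genes with a promoter in the table the share was 15.8%, near both values. A gene counted if any of its promoters held the hexamer.

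Scn4b, Cacnb3 and Kcng4, which encode ion channel subunits, fell. Scn4b, the sodium channel beta 4 subunit that is linked to resurgent current, was at 92.3, 104, 119 and 104 CPM in Ctrl and at 46.0, 46.8, 43.0 and 43.7 CPM in Mut. Its Mut values lay close together, and its log2 difference was -1.23 ± 0.11 (adjusted p = 0.00116, edgeR). Cacnb3, a calcium channel beta subunit, had 78.0, 79.2, 46.3 and 52.1 CPM in Ctrl, where the values formed a high and a low pair, and 18.4, 23.2, 23.5 and 17.0 CPM in Mut. The log2 difference was -1.64 ± 0.20 (adjusted p = 0.00708). Kcng4, a modifier subunit of voltage-gated potassium channels, had 46.0, 75.2, 63.1 and 63.1 CPM against 15.9, 11.8, 27.0 and 17.7 CPM, a difference of -1.77 ± 0.24 (adjusted p = 0.0136).

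Of 56 tested potassium channel genes 2 fell, Kcng4 among them, with a median of -0.10, and of 32 sodium, calcium and HCN channel genes 2 fell (Scn4b and Cacnb3), with a median of -0.11. Kcnc1 and Kcnc2, which encode potassium channels that let these neurons fire rapidly, did not pass the test. Kcnc1 was at 1101 to 1260 CPM in Ctrl and 772 to 1079 CPM in Mut (adjusted p = 0.482), while Kcnc2 was at 1029 to 1670 CPM and 1598 to 2074 CPM (adjusted p = 0.441). No gene was called among 23 for GABA synthesis, transport and receptors or among 24 glutamate receptors, with medians of -0.08 and 0.02. Slc12a5, which encodes the chloride exporter KCC2, was at 297 ± 13.5 CPM in Ctrl and 218 ± 18.7 CPM in Mut (adjusted p = 0.130).

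**Figure D2:**
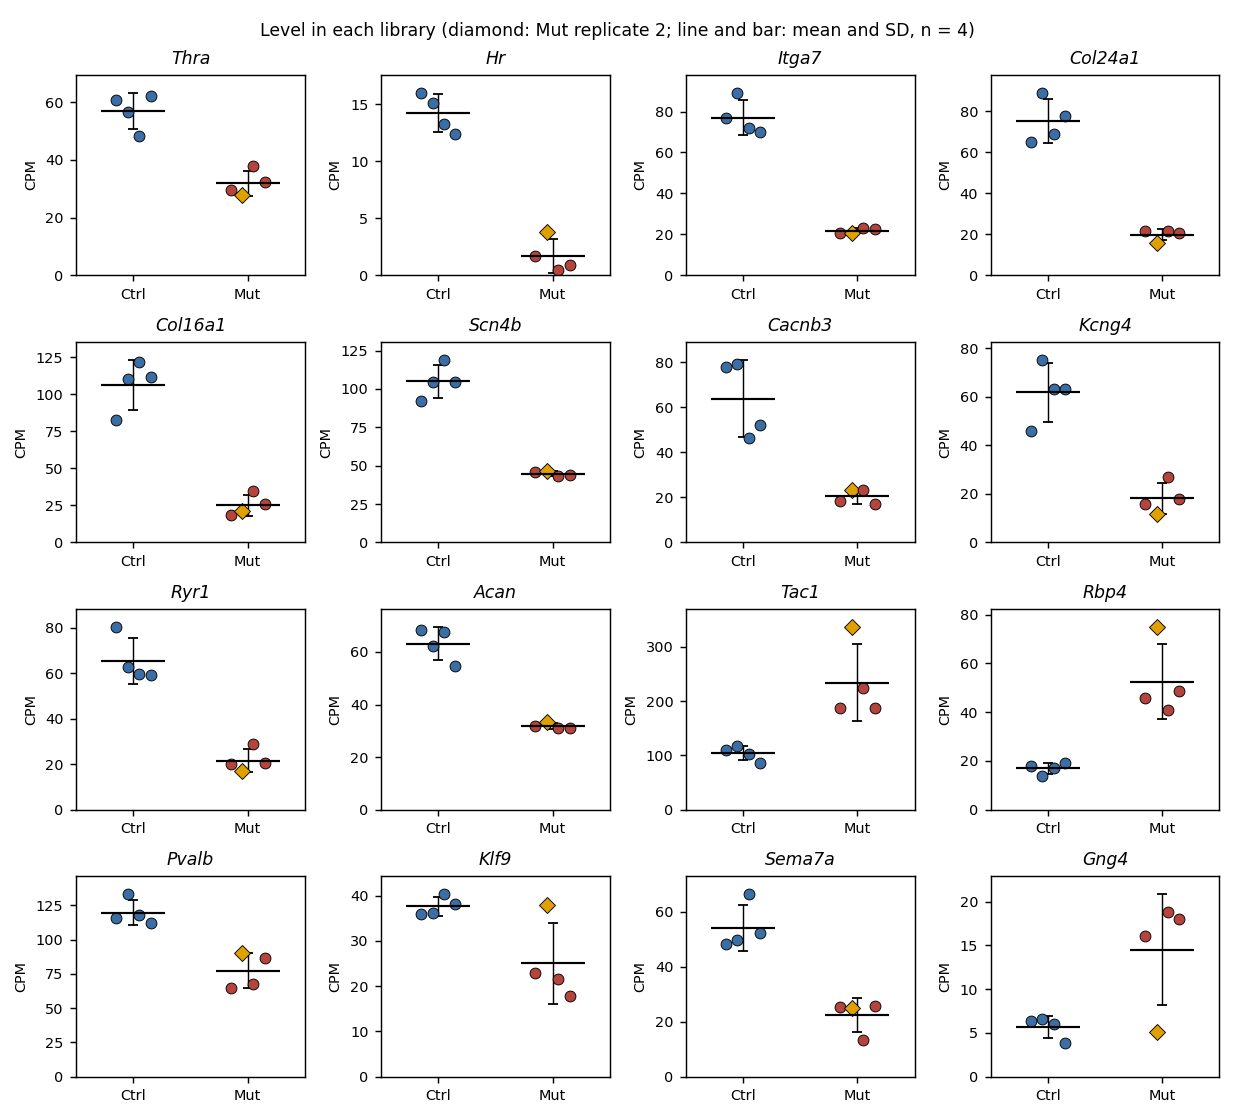
CPM of 16 genes in each library, Ctrl in blue and Mut in red, with Mut replicate 2 as a yellow diamond and the mean and SD (n = 4) as a line and bar. The diamond lies with the other Mut libraries for Thra, Itga7, Scn4b and Acan, above them for Tac1 and Rbp4, and at Ctrl levels for Klf9 and Gng4.

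Ryr1 and Tesc, which handle calcium, fell as well. Ryr1, a ryanodine receptor that releases calcium from internal stores, was at 80.4, 62.8, 59.7 and 59.1 CPM in Ctrl and 20.04, 16.8, 28.7 and 20.6 CPM in Mut. The lowest Ctrl value was well above the highest Mut value, and the log2 difference was -1.60 ± 0.18 (adjusted p = 0.00466, edgeR). Tesc, the calcium-binding protein tescalcin, had 13.2, 24.0, 18.4 and 14.1 CPM against 3.98, 3.03, 6.13 and 5.92 CPM, a difference of -1.87 ± 0.29 (adjusted p = 0.0227). Pvalb, the calcium buffer that gives these neurons their name, was at 116, 133, 118 and 112 CPM in Ctrl and 65.0, 90.1, 67.6 and 86.8 CPM in Mut. All Mut values of Pvalb were lower than all Ctrl values, but the difference of -0.63 ± 0.13 was called only without Mut replicate 2 (adjusted p = 0.0780 with all 8 and 0.0349 without, -0.71 ± 0.13). Of 21 tested calcium buffers and sensors, Tesc alone fell with all libraries, and the median was -0.02.

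Arhgap22, Sema7a and Epha4 also fell. Arhgap22, a GTPase-activating protein for Rac, was at 32.5, 25.5, 33.2 and 35.3 CPM in Ctrl and 3.94, 1.14, 3.73 and 2.36 CPM in Mut. That was an 11.3-fold lower mean, with a log2 difference of -3.49 ± 0.33 (adjusted p = 0.00116, edgeR), and 36.9% of its exon bases overlap Gm15512, whose reads could not be separated. Sema7a, a membrane-anchored semaphorin, was at 48.1, 49.6, 66.4 and 52.4 CPM against 25.5, 24.9, 13.3 and 25.8 CPM, a difference of -1.28 ± 0.21 (adjusted p = 0.0259). Epha4, an ephrin receptor, had 69.7, 48.1, 61.0 and 57.6 CPM against 32.1, 30.6, 21.4 and 29.9 CPM, a difference of -1.05 ± 0.16 (adjusted p = 0.0227). Mut replicate 3 was the lowest of its group for both Sema7a and Epha4. Of 61 tested guidance ligands and receptors, these 2 were the called ones, and the list's median was 0.08. A higher level in Mut was found for 34 of the 61, beside 52.3% of all tested genes. Of the 8 fits that leave out 1 library, Sema7a was called in 2 and Epha4 in 3.

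Further falls included receptors, a secreted factor and chromatin enzymes. Gpr83, a G protein-coupled receptor, had 94.4, 147, 134 and 124 CPM in Ctrl and 59.3, 42.8, 67.6 and 53.7 CPM in Mut (2.24-fold lower, adjusted p = 0.0165). Fzd6, a Wnt receptor, fell 2.69-fold (adjusted p = 0.0227) and Nfatc2, a calcium-dependent transcription factor, 2.54-fold (adjusted p = 0.0259). Lgi3, a secreted protein of the LGI family that is found at Kv1 channel complexes, fell 1.75-fold, from 263 ± 38.7 to 150 ± 8.76 CPM (adjusted p = 0.0227). Suv420h2, a histone H4 methyltransferase, fell 2.32-fold (adjusted p = 0.0136), and Dot1l, a histone H3 methyltransferase, 1.62-fold (adjusted p = 0.0259). Gpcpd1, a glycerophosphodiesterase, fell 1.69-fold, at 879, 1024, 1051 and 1107 CPM in Ctrl and 528, 711, 575 and 583 CPM in Mut (adjusted p = 0.0467).

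Tac1 and Rbp4 were among the genes that rose. Tac1, the precursor of substance P, was at 109, 118, 103 and 86.5 CPM in Ctrl and 187, 336, 225 and 187 CPM in Mut. Mut replicate 2 was the highest, and the log2 difference was 1.17 ± 0.19 (adjusted p = 0.0243, edgeR), or 0.94 ± 0.12 without it (adjusted p = 0.0106). Rbp4, which carries retinol, was at 17.9, 14.0, 17.0 and 19.2 CPM against 45.7, 74.8, 40.8 and 48.6 CPM, a difference of 1.62 ± 0.20 (adjusted p = 0.00708) and of 1.40 ± 0.15 without Mut replicate 2. Rbp4 is on the list of excitatory neuron markers, but it was the only 1 of 12 called, and the summed level of the list overlapped between the groups. Fam150b, a ligand of the ALK and LTK receptors, rose 2.87-fold, from 38.2, 45.6, 50.7 and 32.7 CPM to 101, 134, 92.4 and 153 CPM (adjusted p = 0.00708), and 35.1% of its exon bases overlap Acp1.

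Ror1, a Wnt5a receptor, rose from 1.24 ± 0.308 to 5.98 ± 1.44 CPM (SD, n = 4 each; log2 difference 2.26 ± 0.31, adjusted p = 0.0139, edgeR), and Treh, trehalase, from 1.88 ± 0.712 to 8.82 ± 2.73 CPM (2.22 ± 0.35, adjusted p = 0.0228). Zcchc12, a zinc finger coactivator, had 5.67, 4.32, 5.06 and 8.51 CPM in Ctrl and 23.8, 19.0, 18.7 and 18.6 CPM in Mut (1.76 ± 0.23, adjusted p = 0.0112). Slc7a3, a transporter of arginine and lysine, rose 2.33-fold (adjusted p = 0.0199), and Nupr1, a stress-induced nuclear protein, 2.15-fold (adjusted p = 0.0151). Ppfibp1, a liprin beta scaffold, rose 2.59-fold (adjusted p = 0.0380) and Aplp1, an amyloid precursor-like protein, 1.80-fold (adjusted p = 0.0243). Grhl3, a transcription factor, rose 2.02-fold (adjusted p = 0.0470), and the adhesion molecule Chl1 1.72-fold (adjusted p = 0.0412).

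Neuropeptide genes mostly had higher levels in Mut, and Tac1 was the only 1 of 21 called. The level was higher in 17 of them, and the median log2 difference was 0.52, against 0.01 for all genes, of which 52.3% were higher. Without Mut replicate 2 the median was 0.22, with Tac1 called higher and Chgb, chromogranin B, lower (-0.52 ± 0.10, adjusted p = 0.0414). Vgf, a secreted peptide precursor, was at 66.9, 112, 139 and 81.8 CPM in Ctrl and 167, 212, 180 and 231 CPM in Mut (adjusted p = 0.0784), and Scg2, secretogranin II, at 182 to 243 CPM and 259 to 316 CPM (adjusted p = 0.141). Peptides of other interneuron types were at high levels in Mut replicate 2: Sst was at 20.5 CPM there, 5.84 to 9.36 CPM in the other Mut and 5.00 to 8.94 CPM in the Ctrl libraries, and Vip at 12.6, 1.56 to 5.54 and 2.81 to 5.37 CPM. The summed level of other interneuron markers moved in the same direction, as given above, and its part in these levels was not tested.

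Several lists shifted with no call, by a small amount apart from the immediate early genes. Over all tested genes, 52.3% were higher and 47.7% lower in Mut with all libraries, and 8513 of 17306 were higher without Mut replicate 2. Of 27 immediate early genes, which neuronal activity induces, 23 had a higher level in Mut with all libraries and 23 without Mut replicate 2, with medians of 0.47 and 0.25. Nr4a2, a nuclear receptor of this list, had 1.36 ± 0.575 CPM in Ctrl and 4.22 ± 0.337 CPM in Mut (adjusted p = 0.0958), while Fos overlapped between the groups, at 4.45 to 10.6 CPM and 2.55 to 17.9 CPM (adjusted p = 0.720). Of 15 neurofilament and axonal cytoskeleton genes 13 had a lower level, with a median of -0.17 and of -0.05 without Mut replicate 2. Nefh, the heavy neurofilament chain, was at 99.2, 181, 194 and 174 CPM in Ctrl and 83.4, 87.6, 80.4 and 107 CPM in Mut (adjusted p = 0.0992). Of 34 nuclear-encoded respiratory chain genes 22 had a higher level with all libraries and 9 without Mut replicate 2, with medians of 0.04 and -0.08. Vesicle release (34 genes), circadian clock (18), transcription factors of parvalbumin neurons (15) and cholesterol synthesis (23) had no call in either fit, and medians of -0.13 to 0.07 with all libraries.

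**Figure D3:**
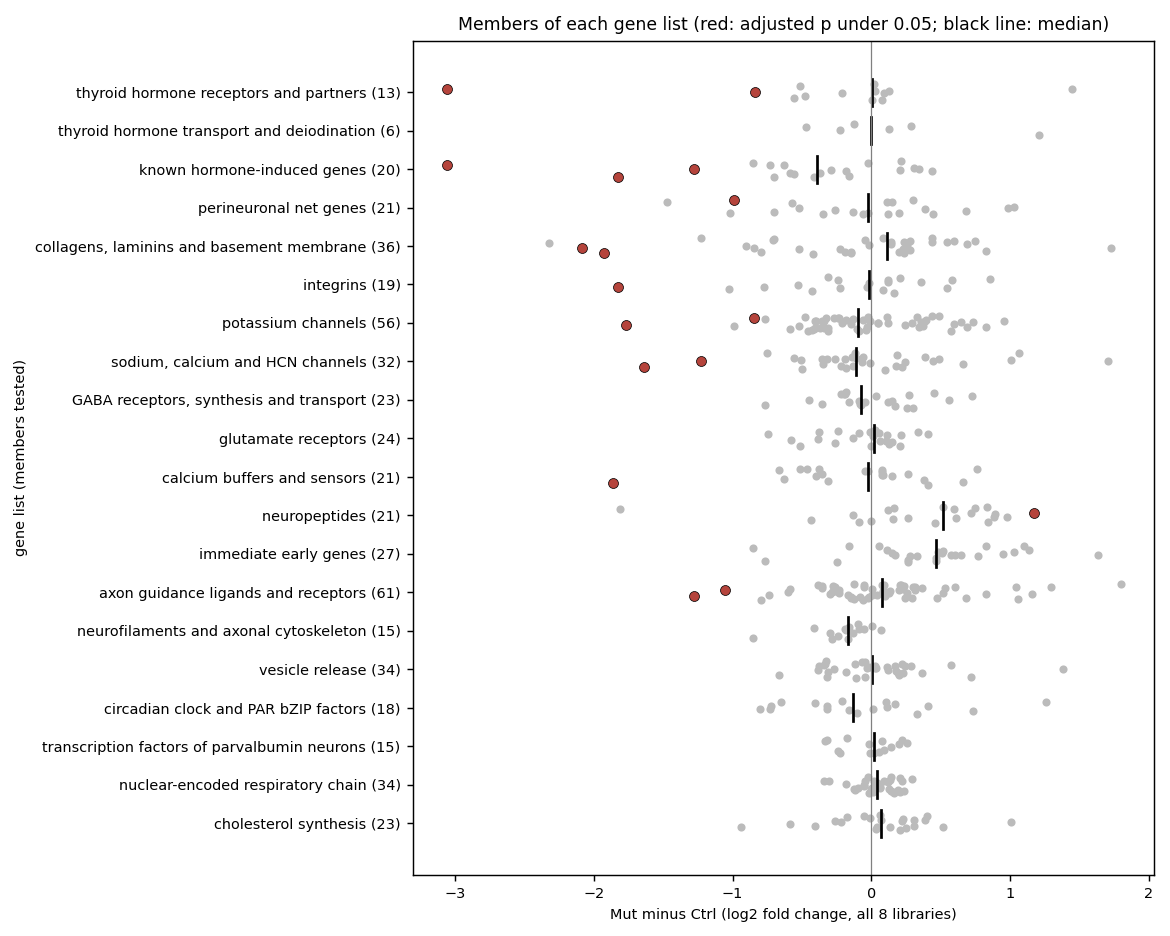
Log2 difference (Mut minus Ctrl, all 8 libraries) of each tested member of 20 gene lists, with called genes in red and the median as a black line. Red points lie to the left of 0, apart from Tac1 at the right of the neuropeptides. Most medians lie near 0, but that of known hormone-induced genes is -0.39, of immediate early genes 0.47 and of neuropeptides 0.52.

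Leaving out Mut replicate 2 lowered the common biological coefficient of variation from 27.8% to 23.2% and added 45 genes, 26 lower and 19 higher. That library then served as a measurement outside the fit. Of the 103 genes called without it, it lay on the same side of the Ctrl mean as the other Mut libraries in 95, and beyond the whole Ctrl range on that side in 90 (87.4%). Over all 17306 tested genes, those shares were 54.5% and 36.0%. Its values and those of the other Mut libraries were set against the same Ctrl libraries, so the shares are not independent of them. Of the 45 added genes it lay on the same side in 37 and beyond the Ctrl range in 32 (71.1%). For calls made without Mut replicate 1, 3 or 4, the omitted library lay beyond the Ctrl range in 11 of 11, 36 of 36 and 16 of 16. Those genes were also called against the same Ctrl libraries. No share over all tested genes was computed for Mut replicates 1, 3 and 4, so these counts are not set against those of Mut replicate 2.

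Where Mut replicate 2 differed, it did so by gene. It was farther from Ctrl than the other Mut libraries for Mrvi1, a substrate of cGMP-dependent kinase, which was at 23.8 to 34.9 CPM in Ctrl and at 6.46, 0.632, 3.20 and 6.74 CPM in Mut. It was at Ctrl levels for Gng4, a G protein gamma subunit, at 3.83 to 6.55 CPM in Ctrl and 16, 5.14, 18.8 and 18.0 CPM in Mut (adjusted p = 0.186 with all 8 and 0.0106 without, edgeR). The same held for Klhl14, a Kelch-like protein, at 4.53 to 7.14 CPM in Ctrl and 14.6, 4.42, 14.0 and 15.6 CPM in Mut. Slc7a2, a cationic amino acid transporter, was at 8.90 to 16.3 CPM in Ctrl and 4.80, 14.3, 5.66 and 4.38 CPM in Mut. Dgkg, a diacylglycerol kinase, was at 53.3 to 61.8 CPM in Ctrl and 134, 69.8, 109 and 143 CPM in Mut, so that Mut replicate 2 was beyond the Ctrl range but near it.

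**Figure D4:**
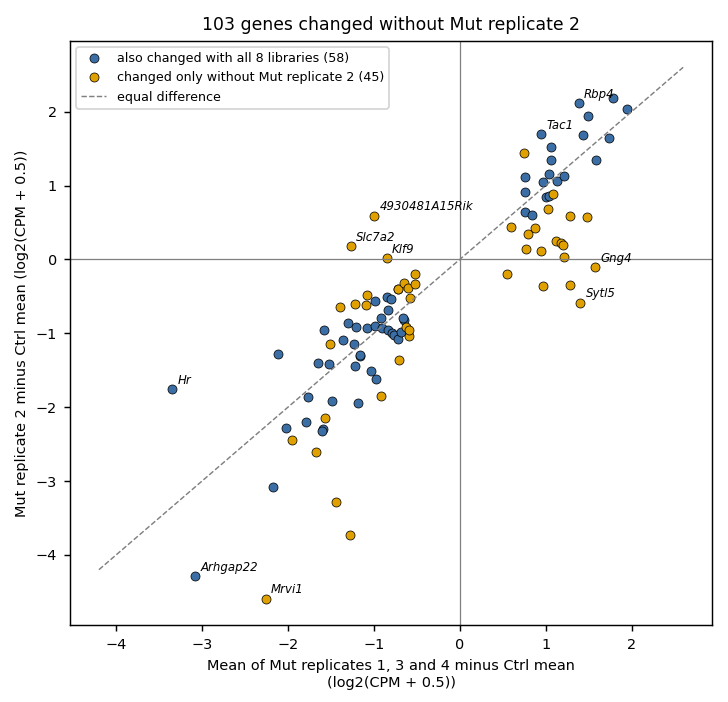
The 103 genes called without Mut replicate 2: mean difference of Mut replicates 1, 3 and 4 from Ctrl on the x axis and that of Mut replicate 2 on the y axis, in log2(CPM + 0.5), with the 58 also called with all libraries in blue. For 95 genes both differences have the same sign; Klf9, Gng4 and Sytl5 are among the other 8.

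Gene length set part of the added calls apart. Among tested genes, 15.2% were longer than 100 kb with all libraries and 15.02% without Mut replicate 2. Of the genes called with all 8 libraries, 8 of 38 that were lower (21.1%) and 6 of 21 that were higher (28.6%) were that long. Of those added without Mut replicate 2, 6 of 26 lower (23.1%) and 12 of 19 higher genes (63.2%) were. The share of counts in long genes was lowest in Mut replicate 2, as given above, and its part in these calls was not tested. The median log2 difference of long genes was -0.02 with all libraries and 0.06 without it, and that of the other genes 0.02 and -0.02. Long genes that were added as higher include Prkg1, a cGMP-dependent kinase (78.9 ± 19.1 CPM in Ctrl and 159 ± 25.7 CPM in the 3 other Mut libraries), and Plppr1, a membrane protein related to lipid phosphatases (16.2 ± 4.66 and 44.8 ± 6.04 CPM).

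Sex was unequal between the groups, so each called gene was also compared within the libraries with Y-linked counts (Ctrl replicate 2 against Mut replicates 1, 2 and 3) and within those without (Ctrl replicates 1, 3 and 4 against Mut replicate 4). Because the groups do not overlap in any called gene, the direction within each is fixed, and only the sizes are given. For Itga7 the within-sex log2 differences were -2.03 and -1.67, for Hr -2.65 and -3.36, for Scn4b -1.20 and -1.26, and for Tac1 1.08 and 0.91. For Pvalb they were -0.84 and -0.41. With sex as a term in the model, 31 genes were called, 27 of them among the 59. The 32 genes that lost the call include Thra (adjusted p = 0.120, edgeR), Hr (0.0658), Sema7a (0.120), Epha4 (0.120), Tac1 (0.120), Hmcn2 (0.0764), Adamtsl5 (0.0792), Nfatc2 (0.120), Dot1l (0.0640), Gpcpd1 (0.144), Slc7a3 (0.0662), Nupr1 (0.0662), Ppfibp1 (0.0906), Aplp1 (0.114), Grhl3 (0.0640) and Chl1 (0.120).

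Genes beside Thra were counted because littermates can differ in the DNA linked to a modified allele. Within 5 Mb of Thra, 209 genes were tested and 1 was called, Thra itself (0.478%, against 0.348% of all genes). An unadjusted p under 0.05 was found for 23 of these (11%, against 8.74% of all), and their median log2 difference was 0.06. Without Mut replicate 2, Arl4d, a small GTPase at chr11:101665541-101667832, was also called (-1.29 ± 0.22, adjusted p = 0.0263), from 17.8 ± 3.73 CPM in Ctrl to 7.28 ± 1.27 CPM in the 3 other Mut libraries.

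The called genes were then read in the hormone experiment, in other mice that share no library with Ctrl or Mut. Sex was mixed there too, with Y-linked counts only in PTU replicates 6 and 7 and PTU_TH replicates 3 and 4. Genes longer than 100 kb took 25.7% to 39.6% of counts in PTU and 24.9% to 40.7% in PTU_TH, less in the libraries with Y-linked counts. Numbers of calls with either as a covariate are given in the last section. In PTU_TH against PTU, 43 of 15288 tested genes were called (0.281%), 39 higher (0.255%) and 4 lower (0.0262%). That number was 27, 10 and 12 without PTU replicates 5, 6 and 7 and 5, 18, 11 and 29 without PTU_TH replicates 1 to 4. Of the 38 genes that fell in Mut, 37 had a higher level after hormone, 14 of them called, and the median log2 difference was 0.78. The exception was Thra (-0.27 ± 0.13, adjusted p = 0.746). Of the 21 that rose in Mut, 20 were tested there, all 20 had a lower level after hormone and none was called, with a median of -0.62. Over all tested genes, 49.5% were higher after hormone and the median was -0.003. Without Mut replicate 2, 62 of 64 lower genes had a higher level after hormone (17 called) and 35 of 38 higher genes a lower level.

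The 14 genes that were lower in Mut and raised by hormone were Hr, Acan, Cacnb3, Tesc, Sema7a, Npnt, Gpr83, Suv420h2, Rgcc, Vash2, Frmpd1, Faap100, Gm10684 and 4632428C04Rik. Mrvi1, Ece1 and Ung joined them without Mut replicate 2. Hr was at 2.71, 5.66 and 3.08 CPM in PTU and 47.8, 50.2, 42.1 and 46.4 CPM in PTU_TH (3.61 ± 0.25, adjusted p = 0.00251, edgeR). Acan was at 53.0, 49.0 and 43.2 CPM in PTU and at 85.4, 97.6, 76.1 and 83.3 CPM in PTU_TH (0.82 ± 0.12, adjusted p = 0.0422). Cacnb3 was at 24.7, 33.9 and 29.3 CPM against 98.0, 105, 101 and 89.9 CPM (1.75 ± 0.13, adjusted p = 0.00251), and Tesc at 11.6, 12.7 and 12.2 CPM against 37.9, 36.7, 34.6 and 33.4 CPM (1.55 ± 0.12, adjusted p = 0.00251). The PTU and PTU_TH libraries of these 4 genes did not overlap, which follows largely from their being called in that comparison. The share of all tested genes without overlap there was not computed.

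Some strong falls in Mut were not called in PTU_TH against PTU. Col16a1 had a difference of 0.42 ± 0.15 (adjusted p = 0.483), Col24a1 of 0.57 ± 0.16 (adjusted p = 0.328), Ryr1 of 0.49 ± 0.16 (adjusted p = 0.416) and Itga7 of 0.71 ± 0.12 (adjusted p = 0.0588, edgeR). Arhgap22 had 33.2, 19.5 and 16.2 CPM in PTU and 61.6, 74.1, 50.8 and 33.9 CPM in PTU_TH (1.26 ± 0.31, adjusted p = 0.245). The exposures differ, a receptor carried by the animal against 24 h of hormone after 2 weeks of propylthiouracil, and the difference between the experiments was not tested.

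**Figure D5:**
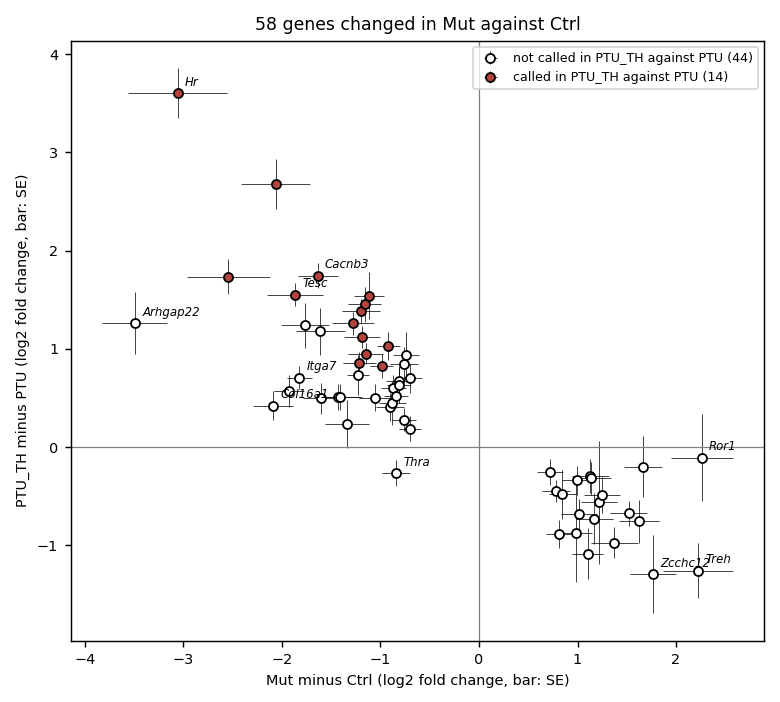
Log2 difference of 58 genes changed in Mut against Ctrl (x axis) and the log2 difference of the same genes in PTU_TH against PTU (y axis), with SE bars and genes called in both in red. Genes lower in Mut lie above 0 on the y axis apart from Thra, and genes higher in Mut lie below 0.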

How the data were processed

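Nuclei were sorted from single cortices, their RNA was amplified with SMART-Seq v4, made into Nextera XT libraries and read as single 75-base ends, per the labels' protocols. The authors deposited raw counts per gene, 1 table per library. Per the submitters' processing notes, alignment to mm10 (GRCm38) used Bowtie2 2.5.3, and genes were counted with HTSeq. Of the annotation release, the strand setting and the handling of multiple alignments, none is stated in the labels, and the kits do not mark strand, so counts of overlapping, antisense and near-identical genes are uncertain. Amplified reads carry no molecular identifiers.

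From the deposited counts, edgeR 4.0.16 (R 4.3.3) gave TMM-scaled CPM and robust quasi-likelihood tests after filterByExpr (minimum count 10), with Benjamini-Hochberg adjustment and calls at an adjusted p under 0.05. Groups came from the titles. Replicates are separate cortices, so mice. The members, the gene lists and the tests were chosen with earlier results of these data known. Named genes were up to 16 rises and 16 falls with the largest change, a mean of at least 5 CPM, groups that do not overlap and no predicted-model symbol, up to 10 each among genes called only without Mut replicate 2, as many as 4 called genes per list, or else its 2 with the smallest p, receptor and target genes, and called genes within 5 Mb of Thra. Other genes named were chosen after their values were seen. Some genes that meet the rule are not reported here or drawn as rows. Positions came from GENCODE M21 for GRCm38 and promoters from RefSeq.

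In simulated data made from these libraries with 200 changed genes, 82% of 2-fold and 100% of 4-fold changes were recovered for Mut against Ctrl (16596 genes, 10 of 192 calls false), and 82% and 99% without Mut replicate 2 (16963 genes, 11 of 192 false). For PTU_TH against PTU the values were 62% and 98% (15010 genes, 5 of 165 false). The changes were placed only in genes with a mean of at least 5 CPM. Noise was drawn independently for each library, with no library set apart and no difference in sex or in the share of long genes. The recovered and false shares hold for such data and can be too favourable for the real libraries. Each fit was repeated with DESeq2 1.42.0, with limma 3.58.1 voom and quality weights, with RLE or upper quartile scaling, with other filters, with covariates, with a replicate block and with each library left out in turn.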

Additional observations from a re-analysis of the deposited data

Results flagged for a closer look

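In 6 of 186 groups of 4 libraries checked, 1 library lay far from the others of its group by Dixon's test. By chance that test flags about 1 group in 20, a larger share than found here. Mut replicate 2 accounted for 3 of the 6. It had 4.42 CPM of Klhl14 against 14.0 to 15.6 CPM in the other Mut libraries, 14.3 CPM of Slc7a2 against 4.38 to 5.66 CPM, and 8.002 CPM of the mural cell marker Rgs5 against 0.406 to 1.12 CPM. Klhl14 and Slc7a2 are described because they were called only without Mut replicate 2. Their flags follow largely from that choice and do not show separately that this library stands apart. Sema7a was at 13.3 CPM in Mut replicate 3 and at 24.9 to 25.8 CPM in the other Mut libraries. Zcchc12 was at 23.8 CPM in Mut replicate 1 and at 18.6 to 19.0 CPM in the others. Among the Ctrl libraries, Fzd6 was at 64.0 CPM in replicate 2 and at 43.6 to 45.4 CPM in the others.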

How the results depend on the processing

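Numbers of called genes depended on the test and on single libraries. For Mut against Ctrl, 59 genes were called as reported, 358 with DESeq2, 331 with limma-voom and quality weights, 90 with a floor of 1 CPM, 210 with the share of long genes as a covariate and 31 with sex as a covariate. RLE scaling, upper quartile scaling and no filter gave 59, 61 and 57. Leaving out 1 library gave 11 to 103. Without Mut replicate 2, 103 genes were called as reported, 475 with DESeq2, 322 with limma-voom, 178 with the long-gene covariate, 71 with sex and 102 to 138 with other scaling and filters; leaving out a further library gave 20 (Mut replicate 1) to 268 (Ctrl replicate 1). For PTU_TH against PTU, 43 were called as reported, 246 with DESeq2, 162 with limma-voom, 335 with sex and 1011 with the long-gene covariate, and 5 to 29 when 1 library was left out. The cause was not tested. Same-numbered Ctrl and Mut libraries deviated together with correlations of 0.169, 0.257, -0.0282 and 0.107, so the numbers were not read as pairs; of the 4 Ctrl libraries, 3 correlated best with their own number and Ctrl replicate 3 with Mut replicate 4 (0.162). With a replicate block 82 genes were called for Mut against Ctrl, 52 of them among the 59, and 68 without Mut replicate 2. Of the 59, the genes not called with the block (edgeR) were Thra, at an adjusted p of 0.0514, Sema7a 0.0513, Chl1 0.0514, Grhl3 0.0502, Rassf4 0.0533, Rgcc 0.0502 and 1190003K10Rik 0.0568. No paired analysis was possible for PTU_TH against PTU because the groups share no replicate number. Of the 36 named genes called with all libraries, 18 passed with sex as a covariate. None of the 36 reversed under any alternative, but their groups do not overlap, so their direction was all but fixed in advance. Uncalled genes reversed in 7 cases: Rgs5 to -0.747 with limma-voom, and with 1 library left out Rgs5 (-0.791 to 1.47, negative without Mut replicate 2), Pecam1 (-0.0454 to 0.850, negative without Mut replicate 2), Sox10 (-1.43 to 0.0759, positive without Ctrl replicate 2) and Thrb (-0.0777 to 0.348, at -0.0573, -0.00499 and -0.0777 without Ctrl replicate 2, Ctrl replicate 4 and Mut replicate 1). Depth of 22333742 counts or more left 16949 of 48321 genes testable.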
